A study of Mus musculus with 4 samples.

Results

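The cytosolic ribosomal protein genes were taken from RNA-seq counts of mouse embryonic stem cells (ESCs) as every row named Rpl, Rps or Rplp and a number, with the Rps6k kinases left out. The rule found 141 of 26301 rows: 46 genes of the large (60S) subunit, 30 genes of the small (40S) subunit, 8 paralogs, 48 pseudogene copies, 8 other copies and Rps19bp1, a binding partner of the Rps19 protein. The symbol column of the table named 82 of these rows and the RefSeq name of the Entrez identifier named 59, including all 48 pseudogene copies. The classes follow the names and not the RefSeq gene type. RefSeq lists Rpl31-ps12 as protein coding, Rps3a2, Rps3a3 and Rpl6l as pseudogenes, and Rps4y2 as a transcribed pseudogene.

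The study compared 2 WT libraries, made from the N6 ESC line, with 2 Rest-/- libraries, made from the N8 ESC line, in which the gene for the repressor REST is disrupted. Each genotype was a single line with 2 biological replicates, so that genotype and line cannot be told apart. Both lines were kept in medium with serum and LIF. The feeder fibroblasts under them were depleted over 3 passages on gelatin. Rest itself had 7908 and 6233 counts in WT ESCs, against 4244 and 3890 in Rest-/- ESCs, which is -0.52 on the log2 scale (SE 0.13, adjusted p = 0.526, edgeR quasi-likelihood test; SE is the standard error of the log2 fold change), and counts over the whole gene do not show which exons were read.

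A ribosome is built from ribosomal RNA and about equal amounts of each ribosomal protein. The proteins of each subunit are known by the names of their genes, and the acidic proteins Rplp0, Rplp1 and Rplp2 form the stalk that recruits the elongation factors. Their mRNAs are short and abundant, most begin with a pyrimidine tract that ties their translation to growth signals, and they are the most frequent source of processed pseudogenes in mammalian genomes. A read from such a gene can therefore align to the gene, to an intronless copy, or to both, depending on a few bases.

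The depth was 22293966 to 30953863 counts on genes per library. Values are given as counts and as CPM, the count relative to library size after edgeR's TMM scaling, as edgeR's cpm function gives it. Of 15444 genes that passed edgeR's filter on low counts, 9 (0.0583%) reached an adjusted p under 0.05 with the quasi-likelihood test of edgeR. The filter kept 126 members: all 76 canonical genes, all 8 paralogs, Rps19bp1, all 8 other copies and 33 of the 48 pseudogene copies. The 15 members that were not tested were all pseudogenes with 6 counts or fewer in any library. The 10 ESC markers were all tested and summed to 5166 to 5256 CPM in WT and 4589.9 to 4830.2 CPM in Rest-/- libraries. Pou5f1 was at 0.08 on the log2 scale, while Zfp42 (-1.36), Nanog (-0.46) and Klf4 (-0.44) were lower in both Rest-/- libraries than in WT. Utf1 (0.19) was higher in both, and Tcfcp2l1 was at 0.2 with overlap of the genotypes. The median of the list was -0.04, with 5 estimates above 0 and 5 below. The quasi-likelihood test of edgeR called 0 of the 10, and 3 had an unadjusted p under 0.05. For this and the next lists, the shares over all genes tested were 16.5% above both WT libraries and 15.4% below both. In the same test 6.71% of all genes had an unadjusted p under 0.05. Of 10 feeder fibroblast markers, 8 were tested and none had an adjusted p under 0.05. All 10 together summed to 52.2 and 62.1 CPM in WT and to 140.1 and 63.6 CPM in Rest-/- libraries. Rest-/- replicate 1 was the highest library for 5 of the 8, among them Col1a1 at 11.8 and 6.42 CPM in WT, against 46.1 and 8.22 CPM in Rest-/- libraries, and Col1a2 at 6.27 and 4.26 CPM, against 28.5 and 3.84 CPM. The list's median was 1.06 on the log2 scale. As differences of log2(CPM + 0.5), it was 1.41 within replicate 1 and -0.09 within replicate 2. Lum had 0 counts in every library and Dcn 1 to 5. Of 10 primitive endoderm markers, all tested and none past the threshold, the sum was 73.1 and 117 CPM in WT and 153 and 190 CPM in Rest-/- libraries. The median of the list was 0.71 on the log2 scale, 6 of the 10 lay above both WT libraries and 4 (Cubn, Gata6, Pdgfra and Dab2) had an unadjusted p under 0.05. The 10 neuron markers summed to 350 and 450 CPM in WT and to 440 and 520 CPM in Rest-/- libraries, and of the 9 tested none passed. The median of the list was 0.35, 5 of the 9 lay above both WT libraries and 3 (Snap25 at 3.98, Elavl3 at 1.67 and Nefl at 1.29) had an unadjusted p under 0.05. Tubb3 (0.01), Mtap2 (0.02) and Syt1 (0.001) were near 0 and Stmn2 was at -0.18, all with overlap of the genotypes. The paper describes REST as a repressor of terminal neuronal genes, so neuron content and loss of REST cannot be told apart for this list. The part of these cells in the results below was not tested, and in bulk RNA fewer cells of a type and less RNA per cell cannot be told apart.

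The members called and Rpl34 belong to families with near-identical copies elsewhere in the genome, and 60 bases of the coding sequence show how little separates them. All are given 5′ to 3′ on the coding strand of the NCBIM37 (mm9) assembly. Capitals in the parent gene mark bases at which any copy shown differs from it, and capitals in a copy mark bases that differ from the parent. The first set is from Rps3a (Rps3a1 in RefSeq, Entrez 20091), which encodes a protein of the small subunit and lies on chromosome 3 from 85941862 to 85946624 on the minus strand. Its copies Rps3a2 and Rps3a3 are single intronless stretches on chromosomes 14 and 13. The windows cover coding bases 609 to 668, at chr3:85942410-85942469 for Rps3a, chr14:88522948-88523007 for Rps3a2 and chr13:109461405-109461464 for Rps3a3.
Rps3a: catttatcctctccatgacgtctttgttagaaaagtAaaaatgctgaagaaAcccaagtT
Rps3a2: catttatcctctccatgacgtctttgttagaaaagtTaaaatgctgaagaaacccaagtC
Rps3a3: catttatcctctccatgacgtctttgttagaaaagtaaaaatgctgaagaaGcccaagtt
Over the whole coding sequence of 795 bases, Rps3a2 differed from Rps3a at 4 bases, which are T216C, T534C, A645T and T668C counted from the first coding base with the Rps3a base first, and Rps3a3 differed at 9.

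The second set is from Rpl29 (Entrez 19944), which encodes a small lysine-rich protein of the large subunit, on chromosome 9 from 106331785 to 106333899 on the plus strand. It had 66 genomic matches that covered 80% or more of its coding sequence with 90% identity or more, and 8 of them reached 98%. The windows cover coding bases 38 to 97, at chr9:106332639-106332698 for Rpl29, chr1:43246038-43246097 for Gm8210, chr5:116252072-116252131 for Gm13841 and chr1:181450892-181450951 for LOC433941.
Rpl29: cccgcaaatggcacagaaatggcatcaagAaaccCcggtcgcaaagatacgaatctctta
Gm8210: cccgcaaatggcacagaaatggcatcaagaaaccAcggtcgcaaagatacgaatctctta
Gm13841: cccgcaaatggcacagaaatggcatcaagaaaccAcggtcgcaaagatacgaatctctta
LOC433941: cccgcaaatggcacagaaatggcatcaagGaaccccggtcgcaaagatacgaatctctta
Gm8210 and Gm13841 carried the same 3 differences from Rpl29 over 483 coding bases (C72A, C300T and T423C), and LOC433941 carried 8.

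The third set is from Rpl34 (Entrez 68436), which encodes another protein of the large subunit, on chromosome 3 from 130429749 to 130433316 on the minus strand. The windows cover coding bases 203 to 262, at chr3:130431673-130431732 for Rpl34, chr4:83151181-83151240 for LOC100040611 and chr5:108946400-108946459 for Gm10086.
Rpl34: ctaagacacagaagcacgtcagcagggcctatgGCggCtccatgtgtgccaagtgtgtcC
LOC100040611: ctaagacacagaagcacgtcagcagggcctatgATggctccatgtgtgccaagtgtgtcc
Gm10086: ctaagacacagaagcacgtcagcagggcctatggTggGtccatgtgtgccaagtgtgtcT
LOC100040611 differed from Rpl34 at 4 of 354 coding bases and Gm10086 at 8. The sources used here do not say how reads that matched several places were counted, nor whether strand was used, so the division of counts among the rows of a family is uncertain for every family described.

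Ribosomal protein genes as a group differed little between the genotypes. The median log2 fold change of the 76 canonical genes was -0.10, with -0.08 for the 60S and -0.12 for the 40S subunit, beside -0.005 over all genes tested, and 63 of the 76 lay within 0.25 of 0 on the log2 scale. The estimate was below 0 for 61 and above 0 for 15, beside 50.8% below 0 over all genes tested, and the standard error of a single gene ranged from 0.115 to 0.396. Rest-/- libraries lay below both WT libraries for 19 canonical genes and above both for 5, which is 25% and 6.58% of them, beside 15.4% and 16.5% of all genes tested. Of all counts, 2.13% and 2.37% fell on canonical genes in WT, against 1.97% and 2.3% in Rest-/- libraries. These ranges overlapped, and the difference of -0.116 percentage points had an exact permutation p of 0.667 (two-sided), where 2 against 2 libraries cannot give less than 0.333. It turned to 0.00362 without WT replicate 2 and to 0.0477 without Rest-/- replicate 1. Within replicate 1 the canonical median was -0.17 and within replicate 2 it was -0.03, as differences of log2(CPM + 0.5), so the shift was larger between the replicate 1 libraries.

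**Figure D1:**
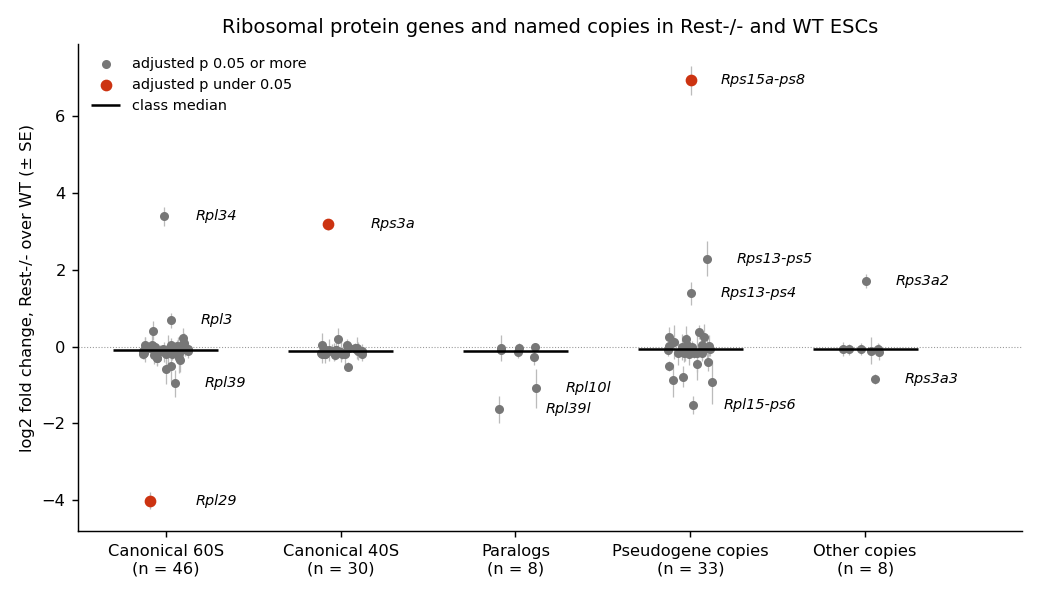
Log2 fold change of Rest-/- over WT ESCs (y axis, with its standard error) for the tested members in 5 classes (x axis, with the number of genes in each), each point 1 gene row, without Rps19bp1. Class medians (black lines) lie between -0.12 and -0.07, and Rpl29, Rps3a and Rps15a-ps8 are the 3 rows with an adjusted p under 0.05.

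Of the 126 members tested, 3 passed the test (2.38%, beside 0.0583% of all genes): Rps3a and the pseudogene Rps15a-ps8 were higher and Rpl29 was lower in Rest-/- ESCs. Of the canonical genes 2 of 76 passed, of the named copies 1 of 41 and of the paralogs 0 of 8. At an unadjusted p under 0.05 in the same test, there were 6 canonical genes (7.89%), 8 named copies (19.5%) and 1 paralog (12.5%). This was 11.9% of the members, beside 6.71% of all genes tested. The tested copies include rows such as Rps15a-ps8 that passed the filter on low counts only through the genotype in which they were high, so their counts of calls are given as a description. DESeq2 called 9 members and edgeR's exact test with tag-wise dispersion 9, beside 238 (1.54%) and 277 (1.79%) of all genes tested. Both lists of 9 held these 3 rows together with Rpl34, Rps3a2, Rps3a3, Rpl15-ps6, Rps13-ps5 and Rpl39l.

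Rps3a had 570 and 519 counts in WT ESCs, against 4328 and 3896 in Rest-/- ESCs. The genotypes were far apart and their replicates close, with 18.9 ± 0.683 CPM (SD, n = 2) in WT and 172 ± 5.92 CPM in Rest-/- ESCs, which is 3.18 on the log2 scale (SE 0.14, adjusted p = 0.0374, edgeR quasi-likelihood test). Its copy Rps3a2 had 517 and 373 counts in WT ESCs, against 1264 and 1138 in Rest-/- ESCs (1.71 on the log2 scale, adjusted p = 0.112). The other copy, Rps3a3, held most reads of the family, with 16478 and 15322 counts in WT ESCs, against 7609 and 7180 in Rest-/- ESCs (-0.84, adjusted p = 0.219). Summed over the 3 rows, the family had 586 ± 26.9 CPM in WT and 531 ± 28.6 CPM in Rest-/- ESCs, and the log2 fold change of the sum was -0.14 (SE 0.12). In WT, Rps3a took 3.25% and 3.2% of the family's counts (95% Wilson intervals 2.99% to 3.52% and 2.94% to 3.48%, for counting error only) and in Rest-/- libraries it took 32.8% and 31.9% (32% to 33.6% and 31.1% to 32.7%). The share of Rps3a3 was 93.8% and 94.5% in WT and 57.6% and 58.8% in Rest-/- libraries.

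Rpl29 showed the opposite direction, with 2291 and 2090 counts in WT ESCs, against 138 and 89 in Rest-/- ESCs. This was 76 ± 2.85 CPM in WT and 4.68 ± 0.936 CPM in Rest-/- ESCs, which is -4.02 on the log2 scale (SE 0.22, adjusted p = 0.0388, edgeR quasi-likelihood test). With only genes of at least 10 counts in every library kept, the adjusted p was 0.0626. Its copies Gm8210 and Gm13841, named here after their values were seen, had 485 and 383 and 447 and 351 counts in WT, and 675 and 573 and 519 and 532 in Rest-/- libraries. Their log2 fold changes were 0.79 and 0.68, with adjusted p = 0.476 and 0.662. LOC433941 had 66 and 54 counts in WT ESCs, against 2 and 7 in Rest-/- ESCs. The rows at the genomic matches, 12 with Rpl29 itself, summed to 112 ± 0.728 CPM in WT and 57.9 ± 2.37 CPM in Rest-/- ESCs. Rpl29 made up 66.3% and 69.3% of that sum in WT and 9.5% and 6.74% in Rest-/- libraries.

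Rpl34 had 400 and 228 counts in WT ESCs, against 2938 and 2475 in Rest-/- ESCs, which is 3.39 on the log2 scale (SE 0.26) and an adjusted p of 0.0809 in edgeR's quasi-likelihood test. The genotypes did not overlap, at 10.7 ± 3.12 CPM in WT and 113 ± 1.4 CPM in Rest-/- ESCs, but the 2 WT libraries differed more from each other than did the Rest-/- libraries. The adjusted p was 0.00103 without WT replicate 1, 0.00104 without WT replicate 2, 0.000495 without Rest-/- replicate 1 and 0.000792 without Rest-/- replicate 2, in fits that assume that a lone library varies like the other group. The copy LOC100040611, named after its values were seen, had 320 and 220 counts in WT ESCs, against 1558 and 1325 in Rest-/- ESCs (2.69, adjusted p = 0.0807). Gm10086 had 120 and 89 counts in WT ESCs, against 89 and 89 in Rest-/- ESCs. The sum of the 4 rows of the family was 23.7 ± 5.09 CPM in WT and 177 ± 1.3 CPM in Rest-/- ESCs, 7.44 times as high.

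**Figure D2:**
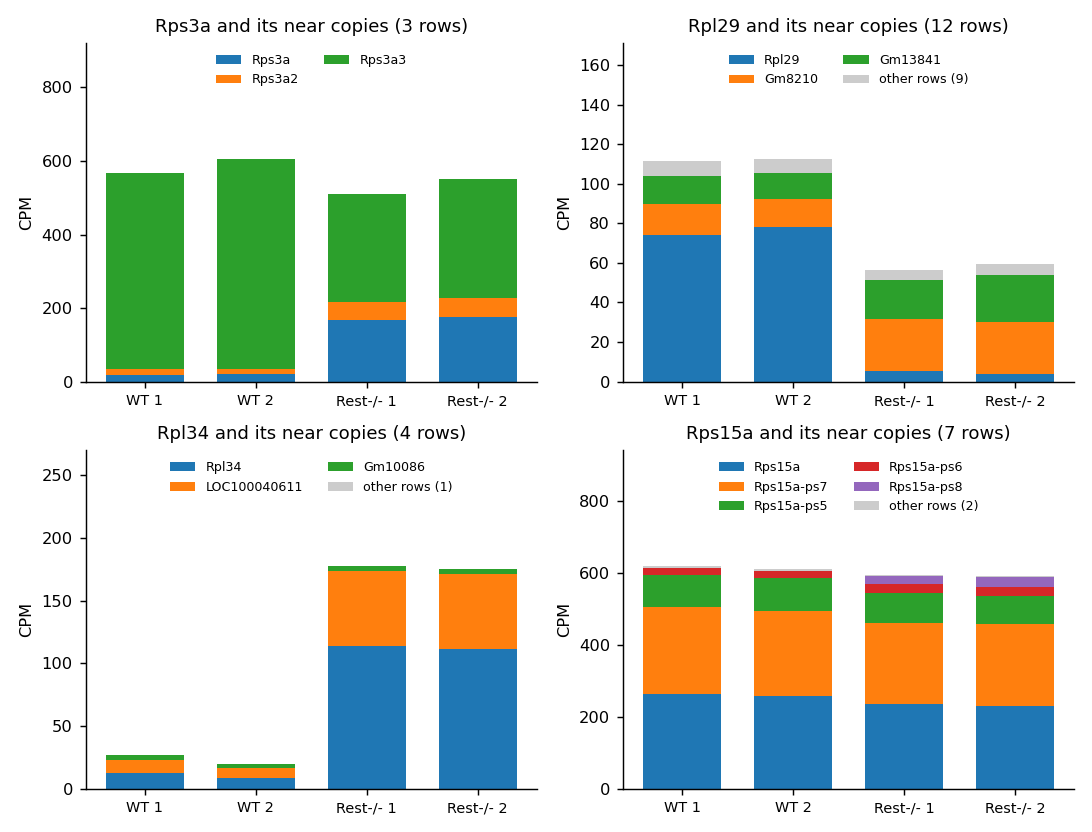
Stacked CPM (y axis) of each row of 4 families in the 2 WT and 2 Rest-/- libraries (x axis), with the parent gene at the bottom. The Rps3a and Rps15a sums stay within 511 to 605 and 592 to 619 CPM, the Rpl29 sum is 112 CPM in WT and 57.9 CPM in Rest-/- ESCs, and the Rpl34 sum 23.7 and 177 CPM (means of 2 libraries).

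Rps15a-ps8 (Entrez 435784), a pseudogene of the small-subunit gene Rps15a with no position in the annotation used, had 8 and 4 counts in WT ESCs, against 625 and 613 in Rest-/- ESCs. On the log2 scale this is 6.94 (SE 0.37, adjusted p = 0.0388, edgeR quasi-likelihood test), from 0.204 ± 0.0771 to 25.9 ± 2.46 CPM. It passed the filter on low counts only through the Rest-/- libraries, so a row kept in this way had to differ, and it was not tested under the minimum of 10 counts in every library. Its parent Rps15a, on chromosome 7 from 125247892 to 125259700, had 8145 and 6931 counts in WT ESCs, against 6096 and 5113 in Rest-/- ESCs (-0.16, SE 0.12). The 7 rows of the family summed to 615 ± 5.12 CPM in WT and 594 ± 2.85 CPM in Rest-/- ESCs. Rps15a-ps8 accounted for 0.0418% and 0.0244% of the family's counts in WT and for 4.06% and 4.68% in Rest-/- libraries. Within the same family Rps15a-ps6 was at 0.39 and Rps15a-ps2 at -0.79 on the log2 scale, both without overlap of the genotypes, with adjusted p = 0.883 and 0.725. These 2 copies and the parent are set side by side at coding bases 133 to 192, at chr7:125258320-125258379, chr11:6072848-6072907 and chr19:28816850-28816909.
Rps15a: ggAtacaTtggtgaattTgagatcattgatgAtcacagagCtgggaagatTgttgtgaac
Rps15a-ps6: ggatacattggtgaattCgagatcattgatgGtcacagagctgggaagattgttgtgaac
Rps15a-ps2: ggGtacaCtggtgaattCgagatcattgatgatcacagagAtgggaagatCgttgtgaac
Rps15a-ps6 differed from Rps15a at 5 of 393 coding bases and Rps15a-ps2 at 18.

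Other copies differed by less and did not pass. Rpl15-ps6, a copy of Rpl15 with 2 differing bases in 615, had 1099 and 1227 counts in WT ESCs, against 326 and 344 in Rest-/- ESCs (-1.53, adjusted p = 0.215). Rpl15 itself, which had 2361 and 1458 counts in WT ESCs, against 1626 and 878 in Rest-/- ESCs, overlapped between the genotypes (-0.35, and from -0.72 to -0.06 with 1 library left out). Rps13-ps4 had means of 3.12 CPM in WT and 8.15 CPM in Rest-/- ESCs (1.38, adjusted p = 0.439), and Rps13-ps5 had 29 and 13 counts in WT ESCs, against 88 and 81 in Rest-/- ESCs (2.3, adjusted p = 0.375). Rps13 was at -0.04. Across the 41 named copies tested the median was -0.07 (0.03 without Rest-/- replicate 1, -0.19 without Rest-/- replicate 2), 27 were within 0.25 of 0, and the Rest-/- libraries lay above both WT libraries for 7 (17.1%) and below both for 12 (29.3%), beside 16.5% and 15.4% of all genes tested.

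Some named copies held more reads than the gene they are named after. For 24 canonical genes, 53 of the 56 named copies could be set beside their parent, and in 9 of the 24 the copies summed to more counts than the parent in all 4 libraries. A single copy did so for 8 of the 53. The genes named in this paragraph were chosen after their values were seen. Rpl37 had 348 to 560 counts per library and its retrotransposed copy Rpl37rt 11232 to 14447. Rps27 had 100 to 144 and Rps27rt 2964 to 3843. Rpl31 had 417 to 628 counts and its 7 copies together 2363 to 3035, most of them on Rpl31-ps8. Rpl37rt and Rps27rt were at -0.07 and -0.07, and Rpl31-ps8 at 0.002 on the log2 scale.

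The levels of the canonical rows per length were lower for genes with more near-identical copies. Levels are given as CPM per kb of coding sequence of the first-numbered GENCODE M1 transcript, for the 75 canonical genes that have one. The WT level ranged from 9.56 for Rps13 to 3939 for Rplp1, a 412-fold range for proteins that a ribosome holds in nearly equal numbers. Of the 75 genes, 72 had at least 1 copy at 90% identity or more and 63 at least 1 copy at 98% or more. The 12 genes with no copy at 98% had a median WT level of 1545 CPM per kb, between 355 and 3093. The 25 genes with 1 or 2 such copies had a median of 355, and the 38 genes with 3 or more had a median of 84.6, between 9.56 and 876. Across the 75 genes Spearman's rho of copy number and level was -0.54 in WT and -0.56 in Rest-/- ESCs, given as a description of genes that share their libraries and are not independent. The highest rows were Rplp1, Rps3, Rpl8, Rpl4 and Rpl32, and all but Rplp1 had no copy at 98%. The lowest were Rps13, Rpl11, Rpl39, Rpl23a and Rps27, with 2 to 5 copies each. The median log2 fold changes of the 3 copy classes were -0.12, -0.12 and -0.07. The 3 genes beyond 1 on the log2 scale, Rps3a, Rpl29 and Rpl34, were all in the class with 3 or more copies, where 38 of the 75 genes stood.

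**Figure D3:**
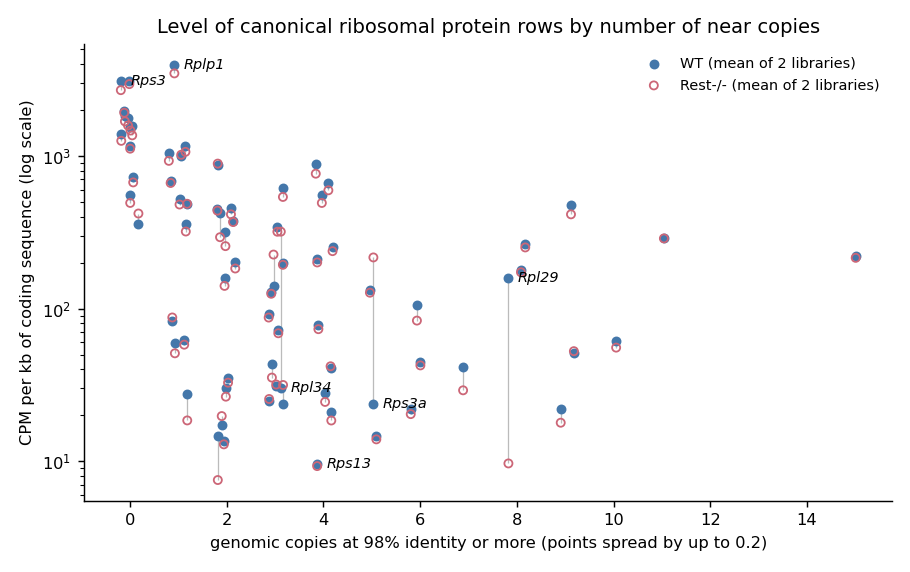
Level of 75 canonical genes in CPM per kb of coding sequence (y axis, log scale) by the number of genomic copies at 98% identity or more (x axis), with WT means filled and Rest-/- means open and joined by a line. The median WT level is 1545 without such a copy and 84.6 with 3 or more, and the long lines are Rps3a, Rpl29 and Rpl34.

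Among the stalk genes Rplp0, listed in the table as Arbp, had 947 ± 73.3 CPM in WT and 968 ± 92.9 CPM in Rest-/- ESCs, a log2 fold change of 0.03. Rplp1 was at -0.19 and Rplp2 at 0.01, and the genotypes overlapped for all 3. Rplp1 was at -0.04 without Rest-/- replicate 1 and at -0.35 without Rest-/- replicate 2. The sign of Rplp0 and of Rplp2 turned below 0 without WT replicate 1 or without Rest-/- replicate 2. Rpl3, a protein of the large subunit, had 4821 and 4918 counts in WT ESCs, against 6106 and 6873 in Rest-/- ESCs (0.69, adjusted p = 0.611). Rpl28 was at 0.41 and Rps27 at 0.2, while Rpl13 was at -0.3 and Rpl37 at -0.22, all 4 without overlap and none with an adjusted p under 0.05. Without Rest-/- replicate 1, Rps27 was at 0.04 and Rpl37 at -0.08. Rpl28 was at 0.27 without WT replicate 2 and at 0.57 without WT replicate 1. The canonical genes nearest to 0 were Rpl7a (0.001) and Rplp2 on the large and Rps24 (0.03) and Rps25 (-0.03) on the small subunit. Rpsa and Fau, which encode ribosomal proteins under other names, were at -0.1 and -0.04.

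The 4 X-linked canonical genes were all lower in the means. Rps4x, a protein of the small subunit, had 10082 and 9087 counts in WT ESCs, against 5678 and 5411 in Rest-/- ESCs, 332 ± 9.62 CPM and 232 ± 17.3 CPM, which is -0.52 on the log2 scale (SE 0.13, adjusted p = 0.523, edgeR quasi-likelihood test). Rpl39, which lines the exit tunnel, had 74 and 59 counts in WT ESCs, against 34 and 23 in Rest-/- ESCs (-0.96, adjusted p = 0.733). Rpl10, a late-joining protein of the large subunit, had 1090 and 497 counts in WT ESCs, against 579 and 337 in Rest-/- ESCs (-0.51) and turned to 0.01 without WT replicate 1. Rpl36a had 352 and 173 counts in WT ESCs, against 172 and 116 in Rest-/- ESCs (-0.58), which was -0.12 without WT replicate 1. The genotypes did not overlap for Rps4x and Rpl39 and overlapped for Rpl10 and Rpl36a. The median of the 4 genes was -0.55, beside -0.09 for the 72 other canonical genes and -0.4 for all 543 X-linked genes tested, of which 0 passed the test (94 had an unadjusted p under 0.05, edgeR quasi-likelihood test). The part of a difference between the lines over the whole X chromosome in these 4 values was not tested.

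The Rpl39 row held few of the counts of its family. Its copy on chromosome 15, Rpl39-ps, differs at 1 of 156 coding bases, which is in coding bases 37 to 96 and is the last base of the windows at chrX:34623991-34624050 and chr15:102465506-102465565.
Rpl39: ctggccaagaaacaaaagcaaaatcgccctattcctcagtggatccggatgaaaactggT
Rpl39-ps: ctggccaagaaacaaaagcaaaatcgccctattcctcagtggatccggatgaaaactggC
Rpl39-ps had 13515 and 10181 counts in WT ESCs, against 7670 and 6241 in Rest-/- ESCs, 99.4% to 99.6% of the sum of both rows in every library, and the row was at -0.5 on the log2 scale (adjusted p = 0.584). Both rows together had 411 ± 40 CPM in WT and 290 ± 10.9 CPM in Rest-/- ESCs.

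The autosomal paralogs of the X-linked genes ranged from -1.64 to -0.03 on the log2 scale. Rpl39l, known mainly from the male germ line, had 776 and 397 counts in WT ESCs, against 177 and 132 in Rest-/- ESCs (-1.64, SE 0.34, adjusted p = 0.406, edgeR quasi-likelihood test), with an adjusted p of 0.0462 without WT replicate 2 (-1.97) and of 0.499 to 0.726 with any other library left out. It was at -1.22 without WT replicate 1. Rpl10l, which stands in for Rpl10 in male meiosis, had 1449 and 485 counts in WT ESCs, against 447 and 293 in Rest-/- ESCs (-1.09), and its WT libraries differed from each other more than WT replicate 2 differed from the Rest-/- libraries. Without WT replicate 1 it was at -0.25. Rpl36al was at -0.03 and Rps4y2 (Rps4l in RefSeq, listed there as a transcribed pseudogene), an autosomal row in the mouse, at -0.09. Of the other paralogs, Rpl22l1 was at -0.28, Rps27l, a target of p53, at -0.14, Rpl3l, known from striated muscle, at -0.03 with 33 to 50 counts per library, and Rpl7l1 at -0.01. Without WT replicate 1, Rpl22l1 was at -0.11 and Rps27l at -0.01. The estimate was below 0 for all 8 with every library kept, and turned above 0 for Rpl36al, Rpl3l and Rpl7l1 with a library left out. Of the 8, 0 passed the test (1 at an unadjusted p under 0.05).

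**Figure D4:**
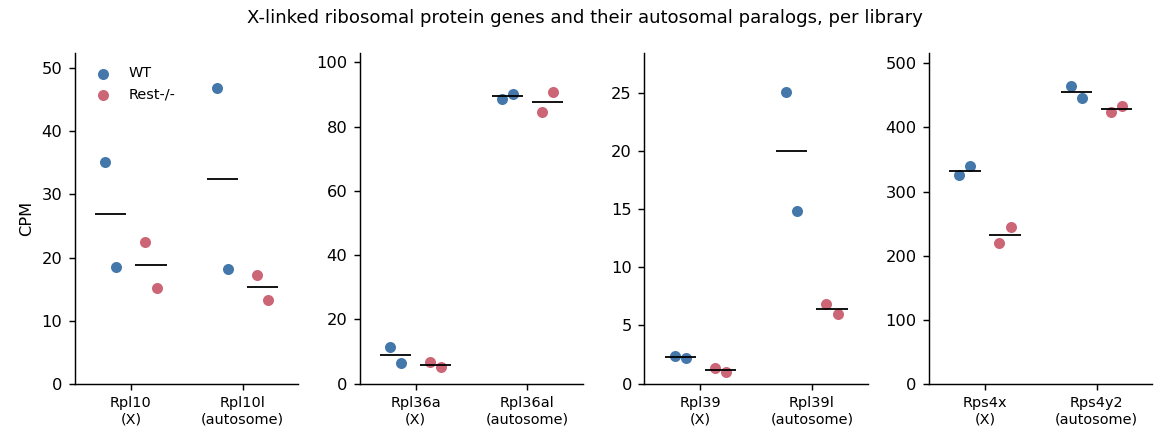
CPM (y axis) of the 4 X-linked canonical genes and their autosomal paralogs (x axis) in each WT and Rest-/- library, with lines at the mean of 2 libraries. The means of Rps4x are 332 and 232 CPM and those of Rps4y2 455 and 429 CPM, and the WT libraries of Rpl10, Rpl10l and Rpl39l are far apart.

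The replicates also differed from each other in the canonical genes, and mostly in the same direction in both genotypes. The replicate 1 minus replicate 2 difference in log2(CPM + 0.5) ran from -0.46 to 0.91 in WT and from -0.53 to 0.66 in Rest-/- libraries over the 76 canonical genes. It was above 0 in both genotypes for 23 genes, below 0 in both for 40 and of opposite sign for 13, with Pearson's r of 0.777 across the 76 genes, which share the same 4 libraries. Of the 12 genes with no copy at 98% identity, 11 were lower in replicate 1 in WT and 12 in Rest-/- libraries, with medians of -0.19 and -0.29, whereas the medians of the 38 genes with 3 or more copies were 0.04 and -0.06. No source used here says what same-numbered libraries share.

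**Figure D5:**
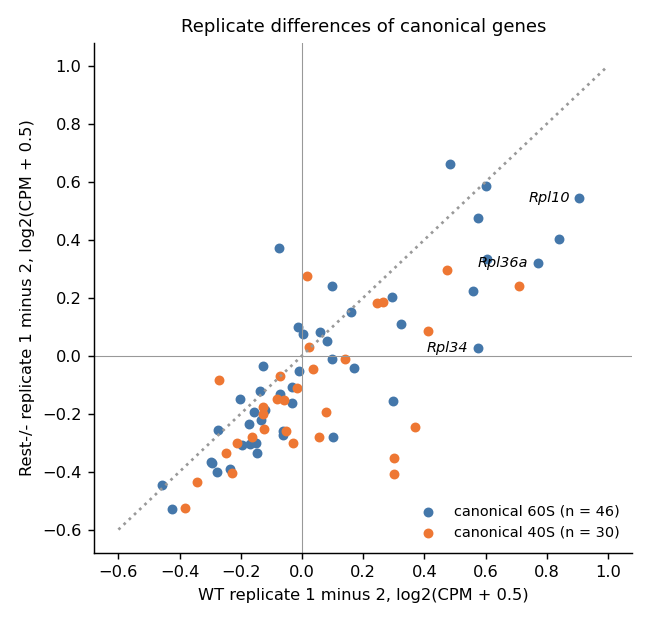
Replicate 1 minus replicate 2 difference of log2(CPM + 0.5) in WT (x axis) and in Rest-/- ESCs (y axis) for 76 canonical genes, 46 of the 60S and 30 of the 40S subunit, with the dotted line at equal values. The points run along that line (Pearson's r = 0.777), from -0.46 to 0.91 in WT.

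Related gene lists held no call. The 75 mitochondrial ribosomal protein genes, whose products build the separate ribosome of the mitochondrion, had a median of 0.02 on the log2 scale and none beyond 0.303 in size. Their share of the counts was 0.428% and 0.43% in WT, against 0.442% and 0.45% in Rest-/- libraries, and the Rest-/- libraries lay above both WT libraries for 17 (22.7%) and below both for 5 (6.67%), beside 16.5% and 15.4% of all genes tested. The 31 ribosome biogenesis genes had a median of -0.007, with Bop1 at 0.25 and Utp14a, which is X-linked, at -0.5 as the extremes. The list of 16 other genes whose mRNAs carry the pyrimidine tract, mostly elongation and initiation factors but also Hnrnpa1, Tpt1, Naca and Gnb2l1, had a median of -0.06, and 13 were below 0, with Eef2 at -0.29. The quasi-likelihood test of edgeR called 0 genes of these 3 lists, and 0 had an unadjusted p under 0.05.

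Promoter sequence was looked at for the 55 canonical genes with an entry in the RefSeq promoter table of GRCm38.p6. The pyrimidine run CTTTC, on the transcript strand from 20 bases before to 30 after the start, was present in 34.5% of them and in 7.66% of 27025 genes. CTTTT in the same window was present in 14.5% and 5.98%. TCAGCACC, a part of the element that REST binds, searched on both strands from 250 bases before to 50 after the start, was found in 0 of the 55 and in 1.85% of all genes. A match is a description of the letters, and the absence of a match in this window says nothing of binding.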

How the data were processed

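RNA-seq of 2 WT and 2 Rest-/- ESC libraries was analysed. The authors extracted total RNA, prepared TruSeq RNA v2 libraries, mapped reads with Subread and counted them with featureCounts (submitters' processing notes, which also name mm9), and the deposited values are raw counts per Entrez gene, without normalization. Handling of multiply mapping reads and strand is not given in the sources used here. The 368 rows with no identifier and no values were left out. Groups came from the labels.

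Counts were compared over the whole table with edgeR 4.0.16 in R 4.3.3 (TMM, filterByExpr, quasi-likelihood test without a block, prior count 0.125, Benjamini-Hochberg adjusted p under 0.05). On simulated counts of this comparison (15422 genes tested), the test recovered 100% of 200 genes changed by 2 on the log2 scale, with 4.31% false calls among 209. The simulation had no shift between replicates and 1 spread for all genes, so it checks the code and does not give the recovery in these libraries, where Rpl34 at 3.39 was not called. Alternatives were 3 other scalings (RLE, upper quartile, none beyond library size), 2 low-count filters, the exact test of edgeR, DESeq2 1.42.0, a replicate block, sums over families by name, and each library left out. GENCODE M1 on NCBIM37 (mm9) gave coding sequences and positions, where 74 of the 76 canonical members had a position, and copies from BLAST+ 2.17.0 (at least 90% identity over 80% of the coding sequence). RefSeq tables of GRCm38.p6 gave names for 24191 identifiers and promoters. Single-library differences used log2(CPM + 0.5). Family sums over copies were described without a test, apart from sums over rows of 1 name. Depth limits low rows: 3 counts, the floor, are 0.0969 to 0.135 CPM per library. The members and lists were chosen with earlier results of these data known.

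Named genes were all members called, the 5 canonical genes and 5 copies or paralogs highest and lowest among non-overlapping members of at least 1 CPM, all paralogs, the stalk and X-linked genes, parents of called copies, the canonical genes nearest to 0, Rpsa and Fau; 1 further gene of the rule is not reported here. Other gene names were chosen after their values were seen.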

Additional observations from a re-analysis of the deposited data

How the results depend on the processing

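The number of calls depended on the test, and the fold changes of the called members kept their direction except under family sums, where Rps3a went from 3.18 to -0.143 because its copies were added to it (edgeR quasi-likelihood test, adjusted p = 1.0). Over all genes, against 9 calls, there were 53 with no filter beyond 1 count in any library, 3 with at least 10 counts in every library, 277 and 344 with edgeR's exact test under tag-wise and common dispersion, 238 with DESeq2, 4 after summing families, and 60 to 113 with a library left out. For members, against 3, these were 4 (no filter), 1 (10 counts), 9, 8 and 9 (exact tests and DESeq2) and 0 (family sums). The family sums go by name, so Rpl29 stood there without its near copies, with an adjusted p of 0.05003 (edgeR quasi-likelihood test). For canonical genes, against 2, there was 1 call with the 10-count filter, 0 with family sums and 3 with each library left out. For named copies, against 1, there were 0 with the 10-count filter, 5, 4 and 5 with the exact tests and DESeq2, and 1 to 2 with a library left out. Family sums give no value for the named copies alone. The canonical median ran from -0.17 to -0.03 and the named copies' median from -0.19 to 0.03 with a library left out. The canonical share of counts, at -0.116 percentage points, ran from -0.279 to 0.0477 and turned above 0 without WT replicate 2 (0.00362) or without Rest-/- replicate 1 (0.0477).

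With the replicate number as a block, 2621 genes were called (17%), among them 25 members, 14 canonical genes and 9 named copies. The deviations of same-numbered libraries correlated at 0.766 over 15444 genes and at 0.624 over 126 members. With 2 numbers and no stated link between these libraries, the main test has no block, and their common shift stays in its spread. In edgeR's quasi-likelihood test with the block, the adjusted p was 3.5e-06 for Rpl34, 3.8e-05 for Rps3a3 and 4.3e-05 for Rpl15-ps6. It was 0.00025 for Rpl3 and 0.00059 for Rps4x, against 0.0548 for Rpl39, 0.0796 for Rpl13 and 0.127 for Rpl28.

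Among the named genes, Rpl7a turned below 0 under RLE scaling (-0.00593), with no filter (-0.00816) and with the 10-count filter (-0.000577). Signs that turned with a library left out belonged to genes near 0 and to Rpl10, with log2 values from -0.0716 to 0.073 for Rpl7a, -0.0749 to 0.13 for Rplp0, -0.127 to 0.141 for Rplp2, -0.0951 to 0.163 for Rps24, -0.0878 to 0.0271 for Rpl36al, -0.0868 to 0.0189 for Rpl3l, -0.0598 to 0.0289 for Rpl7l1, -0.903 to 0.0133 for Rpl10, -0.309 to 0.096 for Rpsa and -0.185 to 0.0981 for Fau.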
